A study of Homo sapiens with 12 samples.

Results

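The response of SZ95 sebocytes to UV-oxidised PAPC was read as the difference between 3 arrays of cells that received a scramble siRNA and UV-PAPC and 3 arrays of cells that received the same siRNA and no treatment, 6 of the 12 samples in all. SZ95 is an immortalised cell line from the human sebaceous gland, the skin gland whose cells fill with lipid and release it as sebum. PAPC is a membrane phospholipid with an arachidonate chain, and ultraviolet light turns it into a mixture of oxidised products. UV-PAPC was given at 25 µg/ml, 24 h after transfection by lipofection, in Sebomed medium. The remaining 6 samples carried an siRNA against OLR1, 3 with UV-PAPC and 3 untreated. They entered the same fit, so they share in the estimate of spread behind every p-value, and their own response is compared at the end. OLR1 encodes LOX-1, a scavenger receptor for oxidised low-density lipoprotein. All cells were transfected, all come from the same cell line, and the labels name no vehicle or unoxidised PAPC, so oxidation, lipid and vehicle cannot be told apart. The labels state neither the length of the exposure nor whether replicates came from separate cultures. The p-values therefore reflect spread among arrays that could be purely technical.

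Oxidised phospholipids carry reactive groups that bind to cysteines of proteins. Damaged or unfolded proteins release heat shock factor 1, which drives chaperone genes through heat shock elements in their promoters, and modified KEAP1 lets NRF2 accumulate, which drives antioxidant genes through antioxidant response elements. ATF4, the factor of the integrated stress response, acts on amino acid and redox genes beside them. In epithelial cells such as sebocytes, factors of the GRHL, GATA, TFAP2 and SOX families set differentiation programmes, and NF-kB and ERK signalling set the level of many secreted factors.

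Values are log2 signals of probe sets on Affymetrix whole-transcript arrays, normalised by the authors. Each gene was read by the probe set with the highest mean, which gave 18417 genes, and differences are UV-PAPC minus untreated on the log2 scale, each with its standard error (SE) from limma. A gene is said to rise or fall where its limma adjusted p (Benjamini-Hochberg over all genes) was under 0.05, and n = 3 arrays per group throughout. By that rule 1347 genes (7.31%) responded, 492 of them (2.67%) upward and 855 (4.64%) downward, and the median over all genes was -0.002. Counts of gene lists below are to be read beside these shares of all genes. The medians of the 6 arrays lay between 6.35 and 6.36, and arrays correlated at 0.996 or more within a group and at 0.9947 or less between groups (Pearson's r across genes, which are not independent replicates). UV-PAPC replicate 3 had the narrowest spread of signals (SD 1.933) and untreated replicate 2 the narrowest of its group (SD 1.97). Without both, 744 genes passed, 334 upward and 410 downward. Leaving out a single array left 868 to 1126 genes. Falls numbered 512 without untreated replicate 1, 562 without untreated replicate 3 and 522 without UV-PAPC replicate 3. A core of 667 genes (3.62%), 254 that rose (1.38%) and 413 that fell (2.24%), kept the call with each of the 6 arrays left out in turn. Every gene named below as rising or falling belongs to this core unless a loss is stated. The normalisation brings the arrays to a common level, so a change of all transcripts in one direction could not be seen, and in these bulk samples fewer cells of a type and less RNA per cell cannot be told apart.

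Rises were fewer than falls and reached further. The 492 rises had a median size of 0.386 (1.31-fold), with the middle of the distribution between 0.314 and 0.523, and 24 reached 2-fold and 7 reached 4-fold. The 855 falls had a median size of 0.371 (1.29-fold), between 0.303 and 0.467, and 11 reached 2-fold and 0 reached 4-fold. Responding genes lay mostly among the brighter probe sets. In 4 equal groups by mean signal, from dimmest to brightest, 27, 95, 178 and 192 genes rose and 17, 114, 314 and 410 fell, while the median SE was 0.085, 0.091, 0.082 and 0.073. The arrays of both conditions did not overlap in 4436 genes (24.1%), higher with UV-PAPC in 1856 (10.1%) and lower in 2580 (14.0%). The median difference of all genes in these groups was 0.019, 0.024, -0.015 and -0.045, so dim genes lay slightly above and bright genes slightly below 0, by less than the size of the median call. The largest single differences were seen in genes of middle to high signal, as the plot of all genes by mean signal shows.

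**Figure D1:**
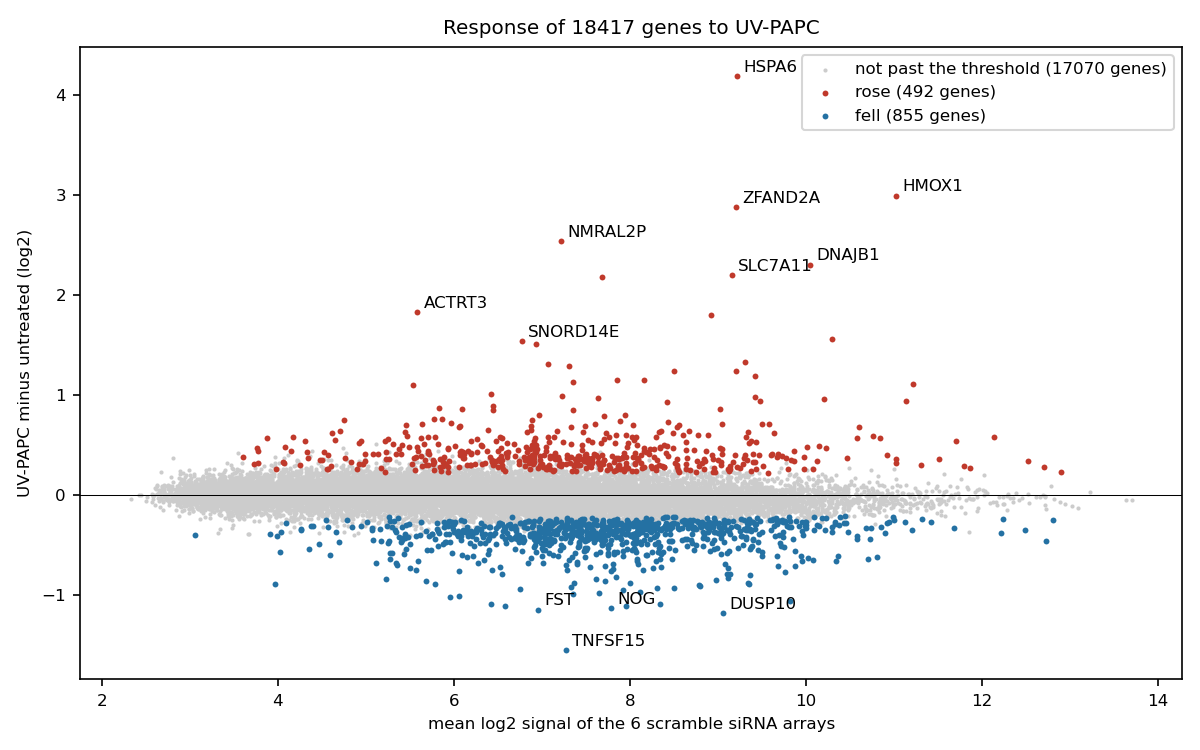
Each point is a gene, with the mean log2 signal of the 6 scramble siRNA arrays on the x axis and the UV-PAPC minus untreated log2 difference on the y axis. Red points are the 492 genes that rose, blue points the 855 that fell and grey points the genes that did not pass the adjusted p threshold of 0.05. The rises extend to 4.20 (HSPA6) and the falls to -1.55 (TNFSF15).

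The gene with the largest rise was HSPA6, a strictly stress-induced Hsp70 chaperone. HSPA6 had log2 signals of 11.45, 11.30 and 11.20 with UV-PAPC, against 7.04, 6.97 and 7.34 in untreated cells. The groups were 3.85 apart at their nearest arrays, and the rise was 18.3-fold (log2 difference 4.20, SE 0.12, limma adjusted p = 5.87e-12). Hsp40 proteins hand substrates to Hsp70 and stimulate its ATPase, and DNAJB1, the main stress-induced member, had 11.29, 11.29 and 11.02 with UV-PAPC, against 8.97, 8.83 and 8.87 in untreated cells (2.31, SE 0.10). DNAJB4, of the same subfamily, had 8.86, 8.89 and 8.57 with UV-PAPC, against 6.74, 6.62 and 6.42 in untreated cells (2.18, SE 0.11). DNAJA4 reached 1.80 (SE 0.09). For these 4 genes every UV-PAPC array was more than 1 log2 unit higher than any untreated array.

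Heat shock elements were looked for in the RefSeq promoters of tested genes (GRCh38.p14, 250 bases before to 50 after the start), by the motif's usual consensus on either strand. They were present in 9 of 397 promoters of genes that rose (2.27%), in 0 of 654 promoters of genes that fell and in 58 of 14237 promoters of all tested genes (0.407%). Among chaperone genes, 6 of 35 that rose held them (17.1%) and 0 of 59 that did not rise. In HSPA6 the first match began 74 bases before the start, in the Hsp90 co-chaperone gene CHORDC1 60 bases and in the collagen chaperone gene SERPINH1 76 bases before it. No match was found in the windows of DNAJB1, DNAJB4, DNAJA4, BAG3, HSPA4L, HSPB8, HSPH1 and ZFAND2A, which says only that these letters are not there. The windows below were chosen because they hold a match and show it with its flanks, in capitals.
HSPA6 (chr1:161524446-161524498, + strand): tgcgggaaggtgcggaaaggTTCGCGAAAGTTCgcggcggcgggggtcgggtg
CHORDC1 (chr11:90223067-90223129, - strand): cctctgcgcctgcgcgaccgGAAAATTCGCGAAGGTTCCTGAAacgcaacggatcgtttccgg
SERPINH1 (chr11:75562157-75562209, + strand): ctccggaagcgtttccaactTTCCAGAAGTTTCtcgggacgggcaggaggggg
The run in CHORDC1 joins 3 overlapping matches. A match is a description of letters and not a measured binding site.

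Of 14 measured Hsp70 and Hsp110 genes 8 rose and 0 fell (57.1%, median 0.336), against 2.67% of all genes, and the values of all 14 were above 0. The count of 8 was 5 without untreated replicate 1. Beside HSPA6 they included the Hsp110 nucleotide exchange factors HSPA4L (1.24, SE 0.08), HSPH1 (1.12, SE 0.07) and HSPA4 (0.45, SE 0.07). HSPA1L had the same value, 0.753, on each of 3 probe sets annotated to it, which may therefore not be separate measurements. Its probes may share signal with near-identical Hsp70 genes. HSPA1A and HSPA1B had no probe set with a single gene symbol and were not read. The constitutive HSPA8 reached 0.24 and lost the call without any single array other than UV-PAPC replicate 3, and HSPA5, the Hsp70 of the endoplasmic reticulum, had 0.20 (adjusted p = 0.093).

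Of 37 measured Hsp40 genes 9 rose and 1 fell, and the median was -0.019. The single fall, DNAJC19, was lost without untreated replicate 1 or 2, without UV-PAPC replicate 1 or 3 and without both arrays of narrowest spread. Beside DNAJB1, DNAJB4 and DNAJA4, the cytosolic DNAJA1 (0.69, SE 0.06) and DNAJB6 (0.47, SE 0.07) rose in every fit with an array left out. Of 21 co-chaperones 10 rose and 0 fell, with the same 10 genes past the threshold whichever array was left out, while 11 did not pass and 6 values were below 0 (median 0.128). BAG3, which couples Hsp70 to small heat shock proteins and to autophagy, had 11.09, 11.08 and 11.05 with UV-PAPC, against 9.52, 9.59 and 9.43 in untreated cells. BAG3 was the most even of the large rises, with the 3 UV-PAPC arrays within 0.04 of each other (1.56, SE 0.07, limma adjusted p = 4.61e-10). The other co-chaperones were CHORDC1 (0.98), the Hsp70 exchange factors BAG2 (0.69) and BAG1 (0.30), the Hsp90 immunophilins PPID (0.60) and FKBP4 (0.48), CACYBP (0.57), SUGT1 (0.40), the p23 gene PTGES3 (0.38) and the Hsp70-Hsp90 adaptor STIP1 (0.30).

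The Hsp90 chaperones had 2 rises and 0 falls among 4 measured genes. HSP90AA1, the inducible cytosolic Hsp90, had 12.48, 12.43 and 12.37 with UV-PAPC, against 11.91, 11.87 and 11.76 in untreated cells (0.59, SE 0.07). HSP90AB1 had 0.27 and lost the call without untreated replicate 2 or 3 and without UV-PAPC replicate 1 or 2. Among 8 small heat shock and related genes 3 rose and 0 fell. They were HSPB8 (1.19, SE 0.09), which forms the chaperone-assisted autophagy complex with BAG3, SERPINH1 (0.96, SE 0.09) and HSPB1 (0.29, SE 0.06), while CRYAB had -0.01 (adjusted p = 0.978). Of 12 mitochondrial chaperones and proteases the 2 that rose were the chaperonin pair HSPD1 (0.55, SE 0.07) and HSPE1 (0.46, SE 0.08). Of 15 subunits of the chaperonin TRiC and of prefoldin 3 rose, but 1 did without untreated replicate 2 or without both arrays of narrowest spread and 0 without untreated replicate 3. The 5 measured heat shock factor genes did not pass, with HSF1 at 0.04 (adjusted p = 0.846).

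**Figure D2:**
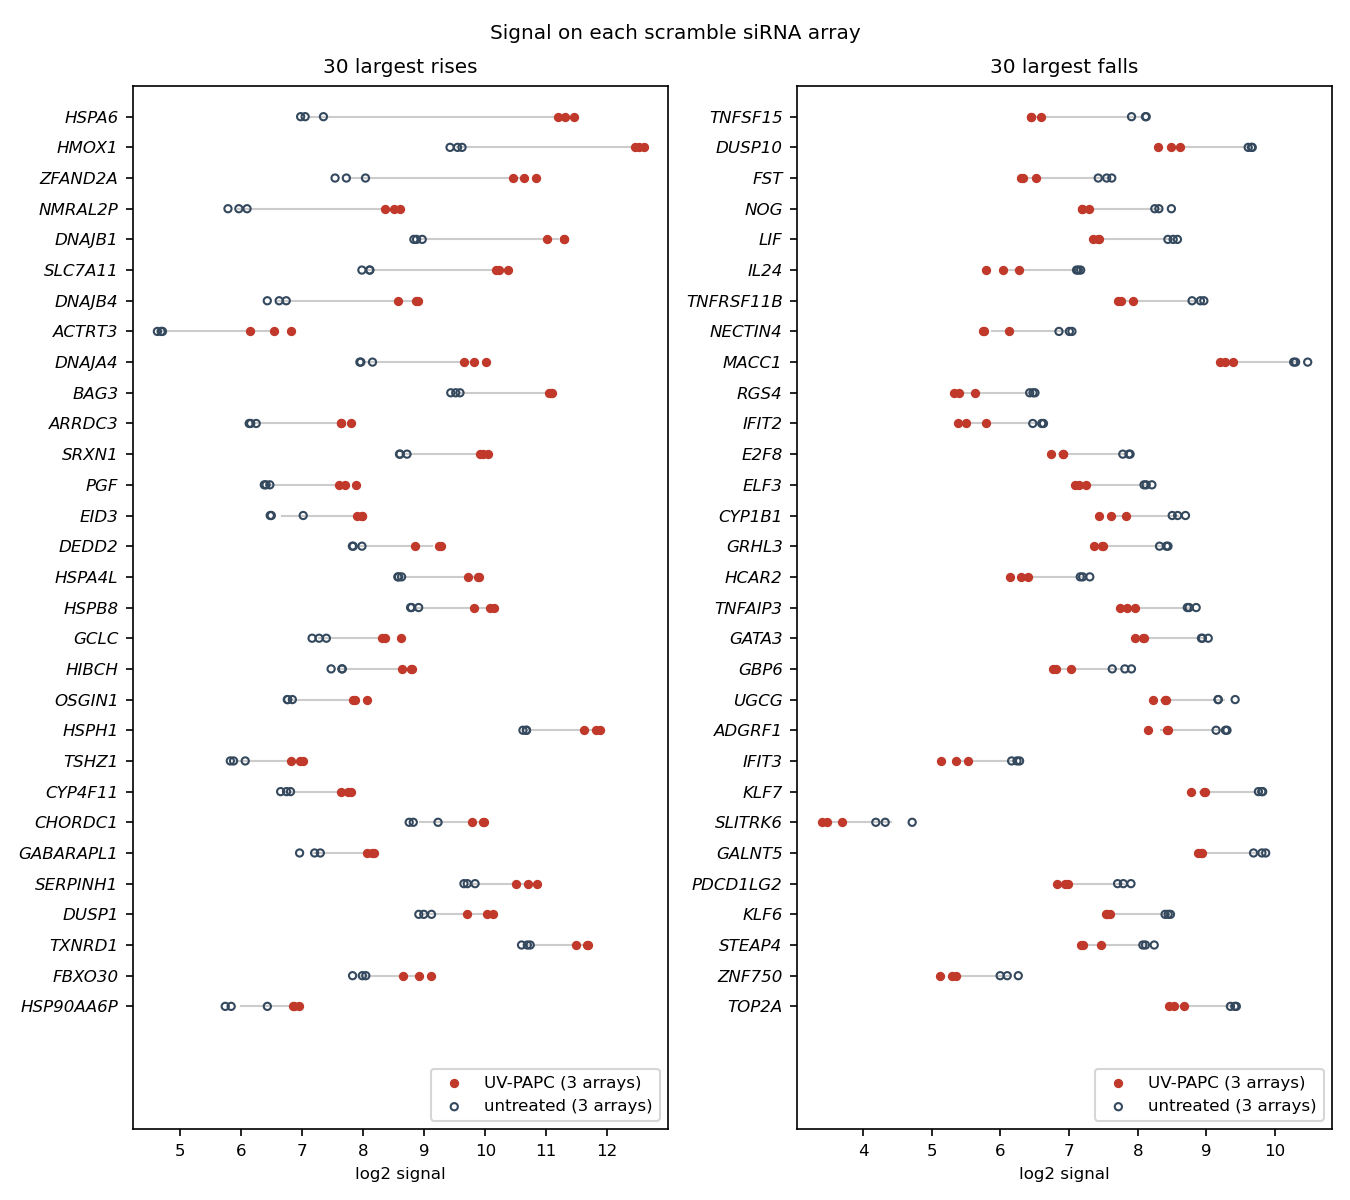
Log2 signal on each scramble siRNA array (x axis) for the 30 genes with the largest rises and the 30 with the largest falls among named genes past the threshold whose groups did not overlap. Filled red points are the 3 UV-PAPC arrays, open points the 3 untreated arrays and grey lines join the group means. HSPA6, HMOX1 and ZFAND2A show the widest gaps on the left and TNFSF15 on the right. Signals of different genes are not comparable with each other.

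Among genes that handle ubiquitin and protein aggregates 4 of 18 rose and 2 fell (median 0.078). ZFAND2A, a zinc finger protein that binds the proteasome under stress, had 10.84, 10.63 and 10.46 with UV-PAPC, against 8.04, 7.72 and 7.54 in untreated cells. The groups were 2.43 apart at their nearest arrays (7.37-fold, 2.88, SE 0.15, limma adjusted p = 6.1e-09). The autophagy receptor SQSTM1 (0.57, SE 0.07), ZFAND5 (0.45, SE 0.08) and the polyubiquitin gene UBB (0.34, SE 0.06) rose with it. The E3 ligase gene RNF19B fell (-0.32, SE 0.07), and RNF19A (-0.38) lost its call without untreated replicate 1 and without UV-PAPC replicate 1 or 3. Of 14 subunits of the 20S proteasome core 0 rose and 0 fell by the limma threshold although 13 values were above 0 (median 0.074), and in the 19S cap 0 of 16 genes kept a call with each array left out (median 0.057). FBXO30, a substrate adaptor of an SCF ubiquitin ligase, rose (0.94, SE 0.10). GABARAPL1, a lipid-anchored autophagosome protein, had 8.17, 8.14 and 8.06 with UV-PAPC, against 7.29, 6.95 and 7.20 in untreated cells (0.97, SE 0.09, limma adjusted p = 6.16e-06). Of 36 autophagy genes GABARAPL1 and SQSTM1 were the 2 that rose in every fit, and of 35 lysosome and proton pump genes GLA, the alpha-galactosidase (0.71, SE 0.08), was the 1 that did.

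Among the genes tested, HMOX1 was second to HSPA6 in the size of its rise. HMOX1 encodes heme oxygenase 1, which splits heme into biliverdin, carbon monoxide and iron, and it had 12.52, 12.60 and 12.46 with UV-PAPC, against 9.42, 9.54 and 9.62 in untreated cells. The 3 arrays of each group lay within 0.2 of each other and the groups were 2.84 apart (7.99-fold, 2.998, SE 0.10, limma adjusted p = 3.05e-11). The ferritin light chain gene FTL rose (0.60, SE 0.07), and in all 3 of 28 heme and iron genes rose and 0 fell (median -0.009).

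Genes of cystine import and of glutathione synthesis and recycling were among the larger redox rises. SLC7A11, the cystine importer, had 10.38, 10.23 and 10.18 with UV-PAPC, against 8.11, 7.98 and 8.10 in untreated cells (4.59-fold, 2.20, SE 0.09, limma adjusted p = 1.45e-10). Its partner subunit SLC3A2 rose by less (0.40, SE 0.08). Both subunits of glutamate-cysteine ligase, which makes the first bond of glutathione, rose, the catalytic GCLC at 8.36, 8.62 and 8.30 with UV-PAPC, against 7.27, 7.16 and 7.39 in untreated cells (1.15, SE 0.09) and the modifier GCLM at 0.71, SE 0.08. The transsulfuration enzyme CTH (0.70, SE 0.09), glutathione reductase GSR (0.41, SE 0.07) and the glutathione-degrading CHAC1 (0.58, SE 0.12) rose too, 8 of 27 genes in all with 0 falls. Genes of both synthesis and breakdown of glutathione were among the rises.

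Of 20 thioredoxin and peroxiredoxin genes 4 rose and 1 fell, and these 5 calls held with each array left out. SRXN1, the sulfiredoxin that repairs over-oxidised peroxiredoxins, had 9.96, 10.05 and 9.92 with UV-PAPC, against 8.60, 8.59 and 8.72 in untreated cells (1.34, SE 0.07, limma adjusted p = 1.19e-08). TXNRD1, the cytosolic thioredoxin reductase, had 11.69, 11.66 and 11.49 with UV-PAPC, against 10.74, 10.60 and 10.69 in untreated cells (0.94, SE 0.08, limma adjusted p = 1.13e-06). SESN2 (0.52, SE 0.09) and TXNL1 (0.30, SE 0.07) were the other rises, and TXNIP, which binds and inhibits thioredoxin, fell (-0.48, SE 0.09). EID3, whose gene lies within the span of TXNRD1 in the RefSeq annotation, had 1.29 (SE 0.12), and signal of the overlapping gene cannot be told apart from its own. None of 19 genes of NADPH supply kept a call with each array left out.

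The core letters of the antioxidant response element, TGACNNNGC on either strand, were in 92 of 397 promoters of genes that rose (23.2%), in 95 of 654 of genes that fell (14.5%) and in 2079 of 14237 of all tested genes (14.6%). The window of TXNRD1 is shown because it holds 2 matches, the first 99 bases before the start, in capitals. The windows of SRXN1, GCLC and OSGIN1 hold no match, and HMOX1, SLC7A11 and NMRAL2P had no promoter to search. The heme, glutathione and thioredoxin lists and the NRF2 lists below were also read together. There 5 of 21 promoters of rising genes held a match (23.8%), and 12 of 82 of the others (14.6%).
TXNRD1 (chr12:104215660-104215799, + strand): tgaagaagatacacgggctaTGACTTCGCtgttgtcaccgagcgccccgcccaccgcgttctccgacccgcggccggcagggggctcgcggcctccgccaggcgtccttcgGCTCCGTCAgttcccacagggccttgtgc

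Some detoxification genes known as NRF2 targets rose, most of them by small amounts. Of 41 measured genes 9 rose, 0 fell and 32 values were above 0 (median 0.109). NMRAL2P, a pseudogene known as an NRF2 target, had 8.60, 8.51 and 8.35 with UV-PAPC, against 6.09, 5.96 and 5.78 in untreated cells (5.84-fold, 2.55, SE 0.10, limma adjusted p = 1.45e-10). OSGIN1 had 7.86, 7.83 and 8.06 with UV-PAPC, against 6.75, 6.76 and 6.83 in untreated cells (1.13, SE 0.08). The aldo-keto reductase AKR1C3 (0.76, SE 0.11), the prostaglandin reductase PTGR1 (0.62, SE 0.06), the aldehyde dehydrogenase ALDH2 (0.60, SE 0.08) and the quinone reductase NQO2 (0.43, SE 0.08) rose, while NQO1 had 0.21 (adjusted p = 0.115). AKR1C genes are near-identical, so the share of a single AKR1C gene is uncertain. Of 16 regulators of NRF2, SQSTM1 and MAFG kept a rise with each array left out. MAFG had 0.60 on the probe set used, 0.43 on a further one, which passed (limma adjusted p = 0.00568), and 0.159 on another, which did not (limma adjusted p = 0.499). NFE2L2, the gene of NRF2, had -0.06 (adjusted p = 0.675), and KEAP1 had 0.29 and lost the call without any single array other than UV-PAPC replicate 2. CYP4F11, a fatty acid hydroxylase gene, rose in addition (0.99, SE 0.07).

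The integrated stress response list overlapped with these genes. Of 42 genes 10 rose and 1 fell (median 0.081), and 7 rises and the fall kept the call with each array left out. DDIT3, the CHOP transcription factor, rose (0.68, SE 0.11), as did PPP1R15A, the phosphatase subunit that reverses eIF2alpha phosphorylation (0.48, SE 0.09), and the mTORC1 inhibitor gene DDIT4 (0.47, SE 0.09). CTH, CHAC1, SESN2 and SLC3A2, given above, are the other 4 of the 7. ATF4 had 0.13 (adjusted p = 0.313) and ATF3 0.03 (adjusted p = 0.903). In the endoplasmic reticulum list HERPUD1, a component of ER-associated degradation, rose (0.86, SE 0.08) and was the 1 gene of 32 to keep the call with each array left out.

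Among the other large rises, ARRDC3, an alpha-arrestin that brings receptors to ubiquitin ligases, had 7.64, 7.80 and 7.63 with UV-PAPC, against 6.15, 6.13 and 6.24 in untreated cells (1.52, SE 0.13, limma adjusted p = 2.16e-06). TXNIP, of the same family, fell, so these 2 alpha-arrestins moved in opposite directions. ACTRT3, an actin-related protein gene known from testis, had 6.54, 6.81 and 6.14 with UV-PAPC, against 4.70, 4.68 and 4.62 in untreated cells. Its UV-PAPC arrays spread over 0.67, the widest spread among the 10 largest rises (1.83, SE 0.16, limma adjusted p = 2.08e-06). PGF, placental growth factor, had 7.88, 7.71 and 7.61 with UV-PAPC, against 6.38, 6.40 and 6.47 in untreated cells (1.32, SE 0.10, limma adjusted p = 9.6e-07). HIBCH, an enzyme of valine breakdown (1.15, SE 0.09), DEDD2, a death effector domain protein (1.24, SE 0.10), and TSHZ1, a zinc finger transcription factor (1.01, SE 0.09), are among the 30 largest named rises too, with HSP90AA6P. HSP90AA6P (0.89, SE 0.14) is a pseudogene of Hsp90, and its probes may read its parent gene.

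The largest share of falls in the lists was that of epithelial transcription factors. Of 28 measured epithelial transcription factors 16 fell (57.1%) and 1 rose, with a median of -0.33, against 4.64% falls among all genes, and 12 of the 16 fell with each array left out. ELF3, an epithelial ETS factor, had 7.14, 7.25 and 7.08 with UV-PAPC, against 8.09, 8.12 and 8.21 in untreated cells (-0.98, SE 0.07, limma adjusted p = 2.28e-07). GRHL3, a grainyhead factor of barrier formation, had 7.37, 7.50 and 7.48 with UV-PAPC, against 8.44, 8.32 and 8.42 in untreated cells (-0.95, SE 0.08, limma adjusted p = 1.13e-06). GATA3 had 7.96, 8.07 and 8.10 with UV-PAPC, against 8.94, 8.93 and 9.03 in untreated cells (-0.92, SE 0.07, limma adjusted p = 8.14e-07). In these 3 genes the untreated arrays lay within 0.12 of each other and every UV-PAPC array lay at least 0.82 below them. ZNF750, a target of p63 in keratinocytes (-0.86, SE 0.11), the Notch target HES1 (-0.84, SE 0.07), the stem cell factor SOX9 (-0.69, SE 0.07), TFAP2A (-0.45, SE 0.07), TFAP2C (-0.40, SE 0.07), KLF4 (-0.43, SE 0.07), GRHL2 (-0.40, SE 0.07), SNAI2 (-0.37, SE 0.07) and GATA6 (-0.32, SE 0.06) are the other 9. The 1 rise was ZEB2, which is also in the fibroblast marker list, so the list does not hold epithelial factors alone. ZEB2 had 0.43 on the probe set used and 0.047 on its other probe set, and lost the call without untreated replicate 1 or 3 and without UV-PAPC replicate 1 or 3. GATA3-AS1, an antisense gene within the span of GATA3, had 0.09 and did not pass.

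**Figure D3:**
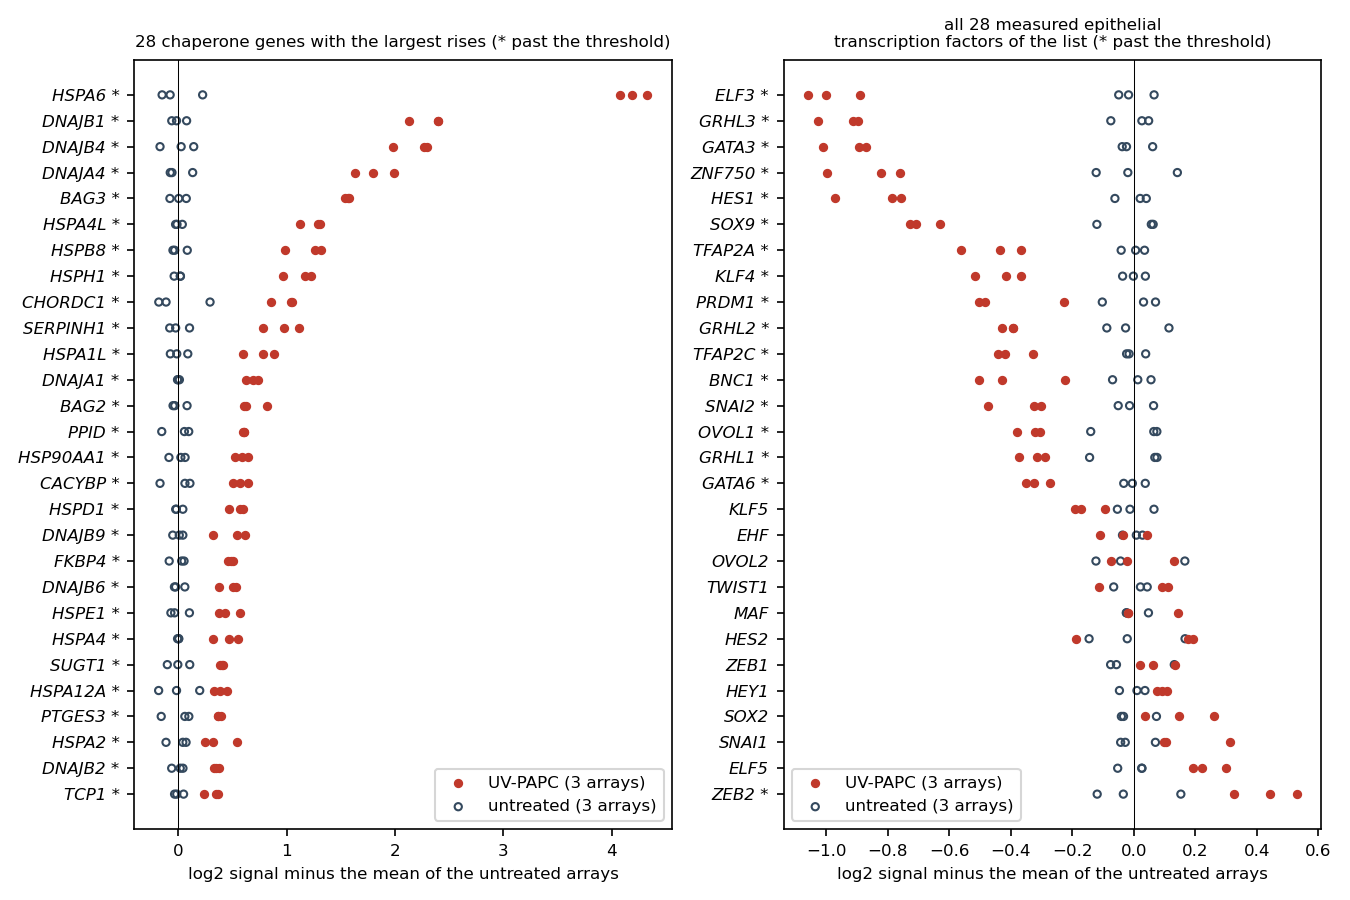
Log2 signal minus the mean of the untreated arrays (x axis) for the 28 chaperone genes with the largest rises, on the left, and for all 28 measured epithelial transcription factors, on the right. Filled red points are the 3 UV-PAPC arrays, open points the 3 untreated arrays, and an asterisk marks genes past the threshold in the fit of all arrays. From ELF3 to SOX9 all UV-PAPC arrays lie well below the untreated mean, while KLF5 to ELF5 on the right did not pass.

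Some other Krüppel-like factors fell beside KLF4. KLF6 had 7.54, 7.60 and 7.56 with UV-PAPC, against 8.40, 8.44 and 8.48 in untreated cells (-0.87, SE 0.07, limma adjusted p = 1.9e-06), and KLF7 (-0.89, SE 0.08) and KLF3 (-0.49, SE 0.08) fell, 5 of 22 in all with 0 rises. Of 47 cornified envelope, desmosome and barrier genes 5 fell and 0 rose, and the 3 that kept the call with each array left out were the lipid transporter ABCA12 (-0.63, SE 0.09), plakophilin PKP2 (-0.59, SE 0.07) and periplakin PPL (-0.47, SE 0.07). Of 39 junction genes 8 fell, but 3 without untreated replicate 1 or without both arrays of narrowest spread, 4 without UV-PAPC replicate 3 and 5 without untreated replicate 3. NECTIN4, an adhesion receptor, had 6.13, 5.77 and 5.75 with UV-PAPC, against 7.04, 6.85 and 7.004 in untreated cells (-1.08, SE 0.10, limma adjusted p = 6.2e-06), and cingulin CGN (-0.45, SE 0.07) and the tight junction scaffold TJP1 (-0.44, SE 0.07) also fell in every fit. Of 34 keratins KRT23 kept a fall (-0.79, SE 0.10), and of 34 integrins and laminins ITGB8 (-0.63, SE 0.09), ITGB6 (-0.51, SE 0.08) and ITGA2 (-0.35, SE 0.07) fell. CDH1, E-cadherin, had -0.24 and lost the call without any single array other than UV-PAPC replicate 2.

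TNFSF15, a TNF family cytokine also known as TL1A, had 6.45, 6.59 and 6.45 with UV-PAPC, against 8.11, 7.91 and 8.12 in untreated cells. It was the largest fall among the genes tested, 2.94-fold, with 1.32 between the nearest arrays of the groups (-1.55, SE 0.09, limma adjusted p = 2.27e-08). TNFRSF11B, the decoy receptor osteoprotegerin, had 7.71, 7.76 and 7.94 with UV-PAPC, against 8.91, 8.79 and 8.96 in untreated cells (-1.09, SE 0.11, limma adjusted p = 7.75e-06). Of 36 TNF superfamily genes these were the 2 that fell with each array left out, and 0 rose in that sense. LIF, a cytokine of the IL-6 type, had 7.43, 7.43 and 7.35 with UV-PAPC, against 8.44, 8.52 and 8.58 in untreated cells (-1.11, SE 0.08, limma adjusted p = 6.75e-07), and LIF-AS2, an antisense gene within its span, had -0.45 and lost the call without untreated replicate 1 and without UV-PAPC replicate 2 or 3. IL24, of the IL-10 family, had 6.04, 6.27 and 5.79 with UV-PAPC, against 7.17, 7.11 and 7.13 in untreated cells (-1.11, SE 0.11, limma adjusted p = 7.08e-06). Apart from SOCS2, which lost the call without any single array other than untreated replicate 2, LIF and IL24 were the only falls among 41 genes of IL-6 type cytokines, CSFs and chemokines, of which 0 rose. These 3 falls are 7.32% of the list, against 4.64% of all genes. Of 25 interleukin-1 family genes 4 fell and 0 rose, 2 of them without untreated replicate 1 or without both arrays of narrowest spread. IL1B (-0.79, SE 0.09) and the receptor antagonist IL1RN (-0.43, SE 0.07) fell in every fit. PDCD1LG2, the PD-L2 ligand, fell as well (-0.88, SE 0.09).

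Extracellular antagonists of the BMP and activin pathways were among the falls, and a BMP ligand rose. FST, follistatin, which traps activin, had 6.30, 6.52 and 6.34 with UV-PAPC, against 7.55, 7.42 and 7.62 in untreated cells (-1.15, SE 0.11, limma adjusted p = 1.13e-05). NOG, noggin, which traps BMPs, had 7.19, 7.18 and 7.29 with UV-PAPC, against 8.31, 8.25 and 8.49 in untreated cells (-1.13, SE 0.07, limma adjusted p = 8.05e-08). BMP4 rose (0.85, SE 0.10), while the BMP target ID1 (-0.40, SE 0.09), the receptor TGFBR2 (-0.51, SE 0.08) and BMPER (-0.44, SE 0.07) fell. In all 6 of 41 genes of this list fell (14.6%, against 4.64% of all genes) and 1 rose (2.44%, against 2.67%). The other 34 did not pass, and the median was -0.045. Among the other ID genes, ID2 had -0.09 and ID3 0.06, neither past the threshold.

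Ligands of the ERBB receptor family, to which EGFR belongs, were divided. NRG4 (0.64, SE 0.11) and epigen EPGN (0.56, SE 0.12) rose, and epiregulin EREG (-0.48, SE 0.08), ERBB3 (-0.44, SE 0.10) and EGFR (-0.27, SE 0.06) fell with each array left out. LRIG3 rose as well (0.44, SE 0.07). Angiogenic and vascular factors also moved both ways, with 4 of 32 rising and 7 falling. The rises were PGF, the lipase inhibitor ANGPTL4 (0.71, SE 0.09), the vasodilator adrenomedullin ADM (0.70, SE 0.09) and FGF2 (0.33, SE 0.07). MACC1, a regulator of MET expression, had 9.27, 9.39 and 9.20 with UV-PAPC, against 10.48, 10.30 and 10.27 in untreated cells (-1.06, SE 0.09, limma adjusted p = 1.35e-06), and IGFBP3 (-0.68, SE 0.12), PDGFB (-0.55, SE 0.08), NRP1 (-0.52, SE 0.07) and EFNB2 (-0.34, SE 0.07) fell in every fit. In the urokinase and metalloproteinase list 8 of 31 fell and 3 rose, 1 rising without both arrays of narrowest spread. Urokinase PLAU (-0.77, SE 0.07), the tissue activator PLAT (-0.40, SE 0.07) and the gelatinase MMP9 (-0.52, SE 0.09) fell, while MMP19 (0.43, SE 0.08) and MMP15 (0.31, SE 0.07) rose.

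Parts of the NF-kB feedback and interferon-stimulated lists fell with UV-PAPC. Of 25 NF-kB genes 6 fell and 1 rose (median -0.157). TNFAIP3, the A20 deubiquitinase and a target of NF-kB, had 7.85, 7.95 and 7.74 with UV-PAPC, against 8.75, 8.85 and 8.72 in untreated cells (-0.93, SE 0.08, limma adjusted p = 1.63e-06). NFKBIA, the inhibitor IkB-alpha (-0.52, SE 0.06), BCL3 (-0.57, SE 0.07), the subunit gene NFKB1 (-0.49, SE 0.07) and the kinase gene IKBKE (-0.38, SE 0.07) fell, and the RNase gene ZC3H12A rose (0.37, SE 0.08). Of 42 interferon-stimulated genes 12 fell (28.6%) and 0 rose, and 7 fell without both arrays of narrowest spread. IFIT2 had 5.50, 5.79 and 5.38 with UV-PAPC, against 6.63, 6.47 and 6.60 in untreated cells (-1.01, SE 0.11, limma adjusted p = 3.29e-05), IFIT3 5.36, 5.52 and 5.13 with UV-PAPC, against 6.16, 6.28 and 6.24 in untreated cells (-0.89, SE 0.11, limma adjusted p = 6.8e-05). IFIT proteins bind foreign RNA, and RIGI, the sensor of such RNA (-0.70, SE 0.08), SAMD9 (-0.71, SE 0.09) and the factor IRF1 (-0.47, SE 0.09) fell with them. GBP6, a guanylate-binding protein gene, fell as well (-0.92, SE 0.11).

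The interferon response motif, on either strand, was in 20 of 33 promoters of the interferon-stimulated list (60.6%), in 6 of the 10 promoters of its members that fell and in 3.04% of all tested promoters. The window of IFIT3 shows 2 matches on the reverse strand in capitals, the first 156 bases before the start.
IFIT3 (chr10:89327821-89327904, + strand): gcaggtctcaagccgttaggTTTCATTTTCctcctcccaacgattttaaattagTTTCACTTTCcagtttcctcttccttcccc

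MAP kinase phosphatases went in opposite directions. DUSP10, which acts on p38 and JNK, had 8.48, 8.61 and 8.30 with UV-PAPC, against 9.66, 9.61 and 9.67 in untreated cells (2.27-fold lower, -1.18, SE 0.09, limma adjusted p = 3.4e-07). DUSP1, which acts on the same kinases and on ERK, had 10.03, 10.13 and 9.70 with UV-PAPC, against 8.99, 8.91 and 9.12 in untreated cells (1.93-fold higher, 0.95, SE 0.10, limma adjusted p = 1.81e-05). The ERK phosphatases DUSP6 (-0.54, SE 0.08) and DUSP4 (-0.44, SE 0.07) fell. Of 27 ERK feedback and output genes 9 fell and 4 rose, 2 rising without UV-PAPC replicate 2 and 1 without untreated replicate 1. RGS4, a G protein signalling regulator, had 5.33, 5.62 and 5.40 with UV-PAPC, against 6.50, 6.47 and 6.43 in untreated cells (-1.02, SE 0.13, limma adjusted p = 0.000164), and cyclin D1 CCND1 (-0.60, SE 0.07), PHLDA1 (-0.54, SE 0.07), SPRY2 (-0.45, SE 0.08) and IER3 (-0.39, SE 0.07) fell, while RGS2 rose (0.51, SE 0.10). Among AP-1, EGR and MYC genes JUNB (-0.75, SE 0.08), EGR1 (-0.60, SE 0.10), EGR3 (-0.39, SE 0.08) and FOSL1 (-0.31, SE 0.07) fell, 4 of 28, and the MYC antagonist MXD1 rose (0.57, SE 0.09). Of 25 YAP and TEAD targets 8 fell, 5 without UV-PAPC replicate 3, untreated replicate 2 or untreated replicate 3 and 4 without both arrays of narrowest spread. Tissue factor F3 (-0.62, SE 0.06), CCN1 (-0.48, SE 0.06) and IGFBP3 were among them.

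**Figure D4:**
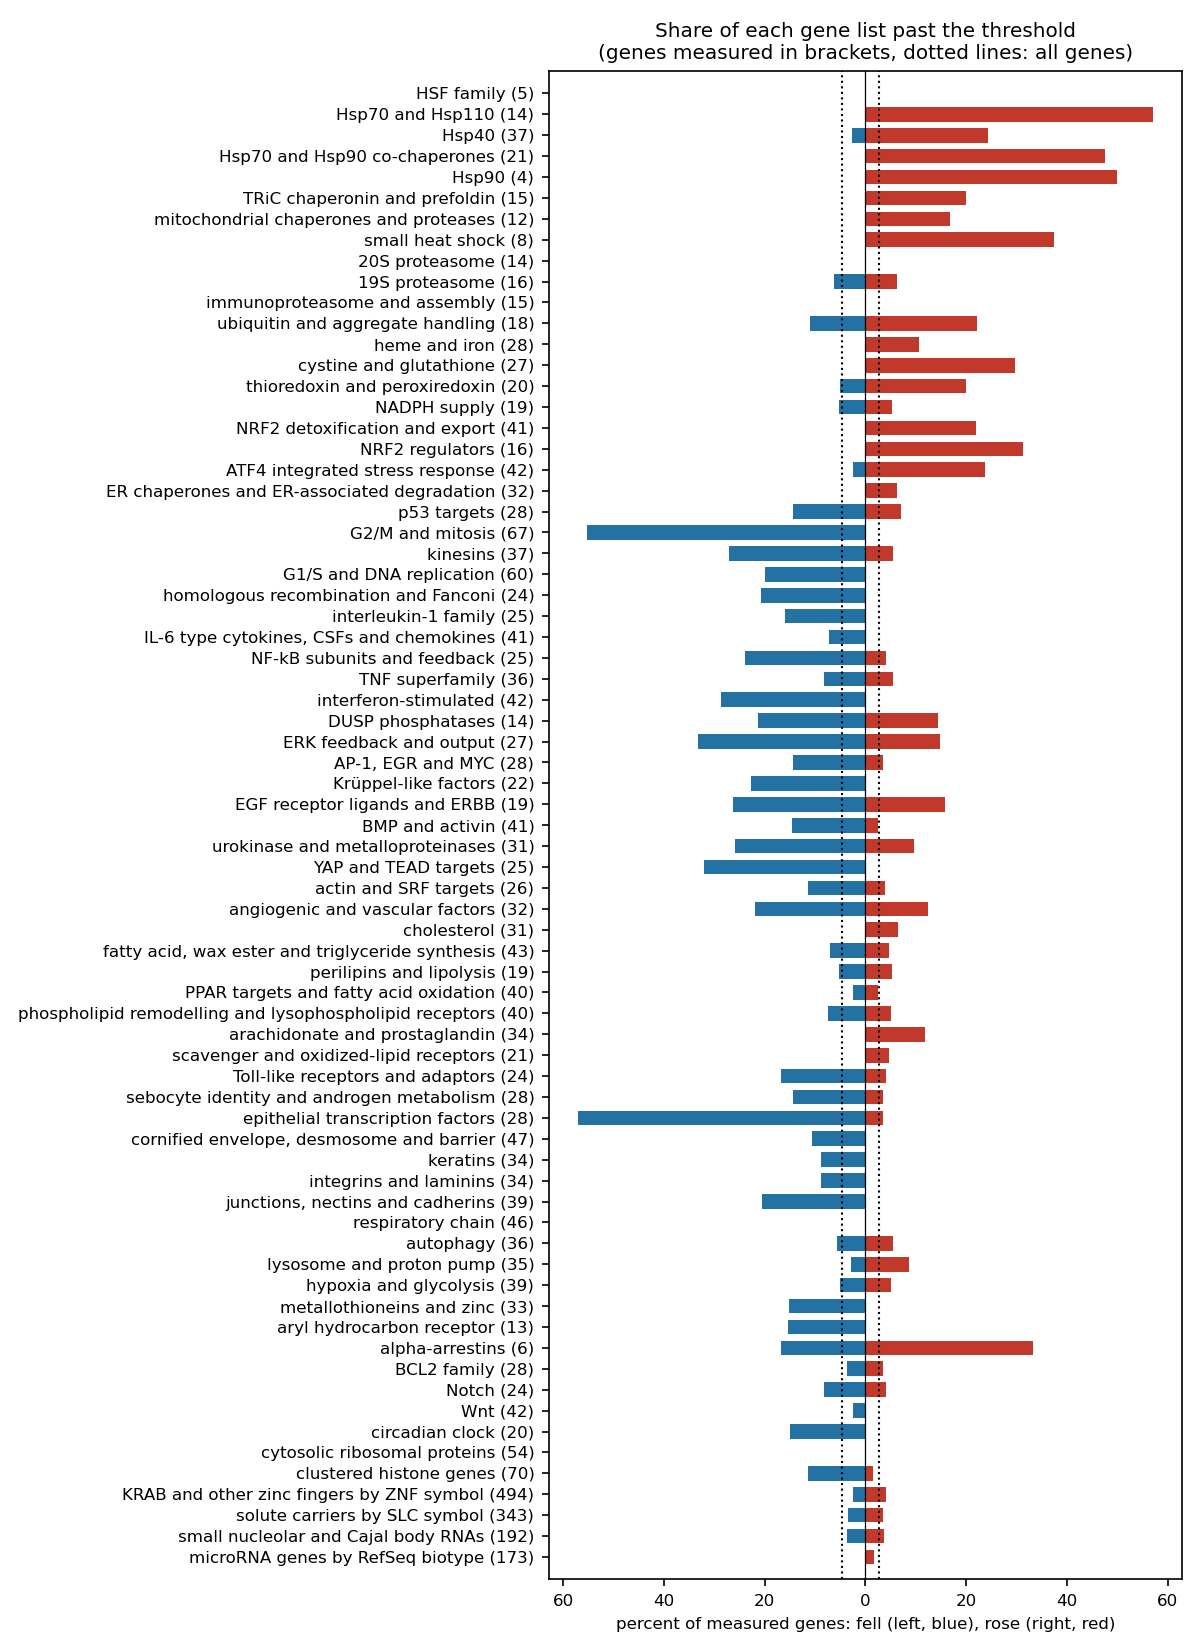
Percent of measured genes of each list that rose (red, right) or fell (blue, left) in the fit of all 6 scramble siRNA arrays and the 6 OLR1 siRNA arrays, with the number of measured genes in brackets. Dotted lines mark 2.67% and 4.64%, the shares of all 18417 genes that rose and fell. The Hsp70 and Hsp110, Hsp90 and co-chaperone lists extend furthest to the right and the G2/M and epithelial transcription factor lists furthest to the left.

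Mitotic genes were lower across the list. Of 67 G2/M genes 37 fell (55.2%), 0 rose and 62 values were below 0 (median -0.279), and 20 fell without both arrays of narrowest spread. TOP2A, topoisomerase II alpha, had 8.53, 8.68 and 8.46 with UV-PAPC, against 9.44, 9.35 and 9.41 in untreated cells (-0.84, SE 0.07, limma adjusted p = 1.45e-06). Cyclin B1 CCNB1 (-0.72, SE 0.07), the kinases PLK1 (-0.66, SE 0.08), AURKA (-0.54, SE 0.06) and BUB1 (-0.47, SE 0.07) and the condensin gene NCAPH (-0.59, SE 0.07) fell. Of 37 kinesins 10 fell and 2 rose, with 6 falls without both arrays of narrowest spread and 1 rise without UV-PAPC replicate 1 or 2 or untreated replicate 2 or 3. The mitotic KIF23 (-0.71, SE 0.07), KIF20A (-0.68, SE 0.10) and KIF11 (-0.42, SE 0.08) fell, as did KIF3A of intraflagellar transport (-0.61, SE 0.09), while KIF3C rose (0.41, SE 0.07).

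Of 60 G1/S and DNA replication genes 12 fell (20%), 0 rose and 51 values were below 0 (median -0.162). E2F8, an atypical repressor E2F, had 6.91, 6.92 and 6.74 with UV-PAPC, against 7.89, 7.78 and 7.87 in untreated cells (-0.99, SE 0.08, limma adjusted p = 1.35e-06), and cyclin E2 CCNE2 (-0.67, SE 0.09) and POLD3 (-0.43, SE 0.07) fell. Of 24 genes of homologous recombination and the Fanconi pathway BLM kept a fall with each array left out (-0.45, SE 0.08). Of 70 clustered histone genes 4 fell in that sense, H1-3 (-0.60, SE 0.08), H2BC14 (-0.56, SE 0.10), H1-5 (-0.45, SE 0.08) and H3C12 (-0.44, SE 0.09), and near-identical histone genes can share probes. Among 28 p53 targets SESN2 rose and PLK2 (-0.51, SE 0.08) and POLH (-0.38, SE 0.08) fell with each array left out. CDKN1A, the p21 inhibitor, had -0.04 (adjusted p = 0.833).

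The cell cycle homology region letters TTTGAA, on either strand, were in 33 of 56 promoters of the G2/M list (58.9%), in 20 of the 31 promoters of its members that fell (64.5%) and in 11.9% of all tested promoters. TOP2A is shown as the largest fall of the list, with 2 matches in capitals, the first 194 bases before the start.
TOP2A (chr17:40418022-40418110, - strand): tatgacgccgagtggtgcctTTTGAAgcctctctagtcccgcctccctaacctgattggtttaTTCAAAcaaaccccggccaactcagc

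Lipid genes, which make sebum, changed in few places. Of 43 genes of fatty acid, wax ester and triglyceride synthesis, the elongase ELOVL6 (-0.63, SE 0.09) and the acyltransferase GPAM (-0.54, SE 0.11) fell with each array left out, and the elongase ELOVL5 (0.39, SE 0.07) and GPAT3 (0.37, SE 0.07) rose. In the fit of all arrays 3 of the 43 fell (6.98%) and 2 rose (4.65%), against 4.64% and 2.67% of all genes. PLIN2, which coats lipid droplets, had 6.95, 6.95 and 6.54 with UV-PAPC, against 6.42, 6.11 and 6.17 in untreated cells (0.58, SE 0.12, limma adjusted p = 0.00554), and the lipase inhibitor G0S2 fell (-0.40, SE 0.08). PPARG, the lipogenic nuclear receptor, had 7.93, 7.84 and 7.78 with UV-PAPC, against 8.22, 8.26 and 8.46 in untreated cells (-0.47, SE 0.08, limma adjusted p = 0.000991). ANGPTL4, a PPAR target, rose as given above, and these were the 2 calls among 40 PPAR and fatty acid oxidation genes. UGCG, which makes glucosylceramide, had 8.41, 8.40 and 8.23 with UV-PAPC, against 9.42, 9.17 and 9.17 in untreated cells (-0.91, SE 0.09, limma adjusted p = 7.02e-06). None of 31 cholesterol genes kept a call with each array left out.

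Genes that handle oxidised or arachidonate-bearing phospholipids were also read. Of 40 genes of phospholipid remodelling and lysophospholipid receptors the acyltransferases LPCAT4 (-0.60, SE 0.07) and MBOAT1 (-0.57, SE 0.08) fell with each array left out and 0 rose in that sense. Of 34 arachidonate and prostaglandin genes 4 rose and 0 fell, the epidermal lipoxygenase ALOXE3 (0.62, SE 0.08), the receptor PTGER2 (0.40, SE 0.08), PTGR1 and PTGES3, while without untreated replicate 2 a single gene fell. None of 21 scavenger and oxidised-lipid receptors kept a call. OLR1 had 6.19, 5.49 and 5.74 with UV-PAPC, against 6.18, 5.55 and 5.35 in untreated cells, with replicate 1 highest in each group, and did not differ beyond that spread (0.11, SE 0.18, limma adjusted p = 0.815, 95% interval -0.27 to 0.49). Among Toll-like receptors TLR4, the lipopolysaccharide receptor, rose (0.80, SE 0.12), and TLR6 (-0.68, SE 0.13) and TLR3 (-0.50, SE 0.09) fell, the 3 of 24 genes to keep a call. HCAR2, the receptor for niacin and hydroxybutyrate, had 6.14, 6.40 and 6.30 with UV-PAPC, against 7.16, 7.20 and 7.30 in untreated cells (-0.94, SE 0.07, limma adjusted p = 7.6e-07).

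Smaller lists gave isolated calls. CYP1B1, a target of the aryl hydrocarbon receptor, had 7.61, 7.83 and 7.44 with UV-PAPC, against 8.58, 8.50 and 8.70 in untreated cells (-0.97, SE 0.11, limma adjusted p = 2.72e-05). NOTCH1 rose (0.70, SE 0.07) while its target HES1 fell, and the clock repressor BHLHE40 (-0.79, SE 0.08) and NR1D1 (-0.34, SE 0.07) fell. In the hypoxia and glycolysis list P4HA2 (0.73, SE 0.08) and ADM rose and hexokinase HK2 (-0.57, SE 0.09) and the glucose carrier SLC2A1 (-0.33, SE 0.07) fell, 2 of 39 each way. That is 5.13% each way, against 2.67% rises and 4.64% falls among all genes. None of 33 metallothionein and zinc genes, 28 BCL2 family genes or 42 Wnt genes kept a call with each array left out. None of 46 respiratory chain or 54 cytosolic ribosomal protein genes passed in the limma fit at all, with medians of 0.010 and -0.002. STEAP4 (-0.86, SE 0.09), ADGRF1 (-0.90, SE 0.11), SLITRK6 (-0.89, SE 0.14) and GALNT5 (-0.88, SE 0.08) complete the 30 largest named falls.

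Small RNA genes held 2 of the larger rises of the table. SNORD14E had 7.63, 7.53 and 7.47 with UV-PAPC, against 5.86, 6.10 and 6.05 in untreated cells (1.54, SE 0.11, limma adjusted p = 2.84e-07) and SNORA29 6.18, 6.06 and 6.03 with UV-PAPC, against 5.23, 4.91 and 4.82 in untreated cells (1.10, SE 0.15, limma adjusted p = 0.000241). In the RefSeq annotation SNORD14E and SNORD14C (0.62, SE 0.11) lie inside HSPA8, and SNORA29 and SNORA20 (0.54, SE 0.09) inside the chaperonin gene TCP1. HSPA8 had 0.24 and TCP1 0.32, less than the small RNAs, and their own calls were not stable, that of TCP1 being lost without untreated replicate 3 and that of HSPA8 in 5 of the 6 fits with an array left out. Of 192 small nucleolar and Cajal body RNAs 7 rose (3.65%) and 7 fell (3.65%), near the 2.67% and 4.64% of all genes. Without both arrays of narrowest spread 4 fell. All 7 that rose lie inside a tested gene, 4 of them inside a gene that rose (all in HSPA8 or TCP1, against 6 of all 99 small RNA genes that lie inside a tested gene), and of the 3 falling ones inside a tested gene 0 lie inside a gene that fell. None of 173 microRNA genes kept a call with each array left out.

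Of 29 sebocyte markers 2 rose (6.9%) and 2 fell (6.9%), against 2.67% rises and 4.64% falls among all genes. Of 19 fibroblast markers 2 rose (10.5%) and 0 fell, and of 8 melanocyte markers 1 fell (12.5%) and 0 rose. None of 12 leukocyte or 10 endothelial markers passed in the limma fit. The mean signals of 3 lists did not overlap between the groups. They were higher with UV-PAPC for fibroblast markers (15 of 19 values above 0) and melanocyte markers (6 of 8) and lower for endothelial markers (9 of 10 values below 0). Such gaps were not particular to cell type lists. Krüppel-like factors averaged 6.75 to 6.77 with UV-PAPC and 6.92 to 6.94 untreated, and 24.1% of single genes did not overlap. Dim genes as a whole lay slightly above 0, as given above. The 29 sebocyte markers had a mean log2 signal of 7.82 to 7.89 on UV-PAPC arrays and 7.88 to 7.90 on untreated arrays, with the epithelial keratins KRT7 at 11.26 with UV-PAPC and 11.33 untreated and KRT8 at 12.44 with UV-PAPC and 12.47 untreated. Among these markers PLIN2 and ELOVL5 rose and PPARG fell, as given above. PRDM1 also fell (-0.40), but not with each array left out. In a related list of 28 sebocyte identity and androgen metabolism genes 4 fell (14.3%, against 4.64% of all genes) and 1 rose (median 0.006). There 3 falls kept the call with each array left out. Differentiation markers of the gland read low, ELOVL3 at 3.76 with UV-PAPC and 3.66 untreated, AWAT2 at 4.10 with UV-PAPC and 3.99 untreated and MC5R at 4.25 with UV-PAPC and 4.12 untreated. The table gives no detection call for such low signals. The 19 fibroblast markers averaged 4.89 to 4.95 with UV-PAPC and 4.83 to 4.87 untreated, and the 8 melanocyte markers 4.74 to 4.77 with UV-PAPC and 4.66 to 4.71 untreated. The 12 leukocyte markers averaged 5.03 to 5.06 with UV-PAPC and 4.97 to 5.04 untreated, and the 10 endothelial markers 4.83 to 4.87 with UV-PAPC and 4.88 to 4.96 untreated. The defining DCN (3.19 with UV-PAPC and 3.08 untreated), PTPRC (3.20 with UV-PAPC and 3.31 untreated), MLANA (3.53 with UV-PAPC and 3.44 untreated) and PECAM1 (4.03 with UV-PAPC and 4.11 untreated) were at the low end of the scale. ZEB2 and COL6A2 of the fibroblast list rose and MITF of the melanocyte list fell in the fit of all arrays, and none of these kept the call with each array left out. The medians of the 5 lists lay between -0.059 and 0.116, and the part of such cells in the results was not tested.

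The same treatment was applied to cells with OLR1 siRNA, on arrays that share no sample with the scramble arrays. Both sets of arrays share 1 estimate of spread. OLR1 was at 4.47, 4.33 and 4.41 with OLR1 siRNA and UV-PAPC and at 4.66, 4.38 and 4.48 with OLR1 siRNA alone, below every scramble array. There 1236 genes (6.71%) responded, 638 upward (3.46%) and 598 downward (3.25%). Of the 492 rises with scramble siRNA 348 also rose with OLR1 siRNA (70.7%, and 54.5% of the 638), and of the 855 falls 415 also fell (48.5%, and 69.4% of the 598). No gene was called in opposite directions by limma, and 96.1% of the rises and 97.2% of the falls had the same sign. The median of the rises was 0.386 with scramble and 0.396 with OLR1 siRNA, and that of the falls -0.371 with scramble and -0.272 with OLR1 siRNA. HSPA6 had 4.20 with scramble and 4.40 with OLR1 siRNA, HMOX1 2.998 with scramble and 2.94 with OLR1 siRNA, TNFSF15 -1.55 with scramble and -1.47 with OLR1 siRNA, and RGS4 -1.02 with scramble and -0.37 with OLR1 siRNA. Genes chosen for their call in the scramble arrays have their size chosen too, so their smaller value elsewhere is a description.

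The difference of the 2 responses itself was tested for every gene, and 0 passed in the limma fit, with 1004 (5.45%) under an unadjusted p of 0.05. The 5 genes with the lowest p each had an adjusted p of 0.52. STC1, the glycoprotein stanniocalcin, had -0.76 with scramble and -0.15 with OLR1 siRNA, a difference of -0.61 (SE 0.11). SNORD12C had -0.49 with scramble and 0.20 with OLR1 siRNA, MLLT11 0.55 with scramble and 1.11 with OLR1 siRNA, CTSO -0.32 with scramble and 0.21 with OLR1 siRNA, and PRDM16-DT 0.11 with scramble and -0.43 with OLR1 siRNA. The fall of CTSO with scramble siRNA was lost without untreated replicate 2 or 3. The scatter of both responses shows the called genes along the line of equal response.

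**Figure D5:**
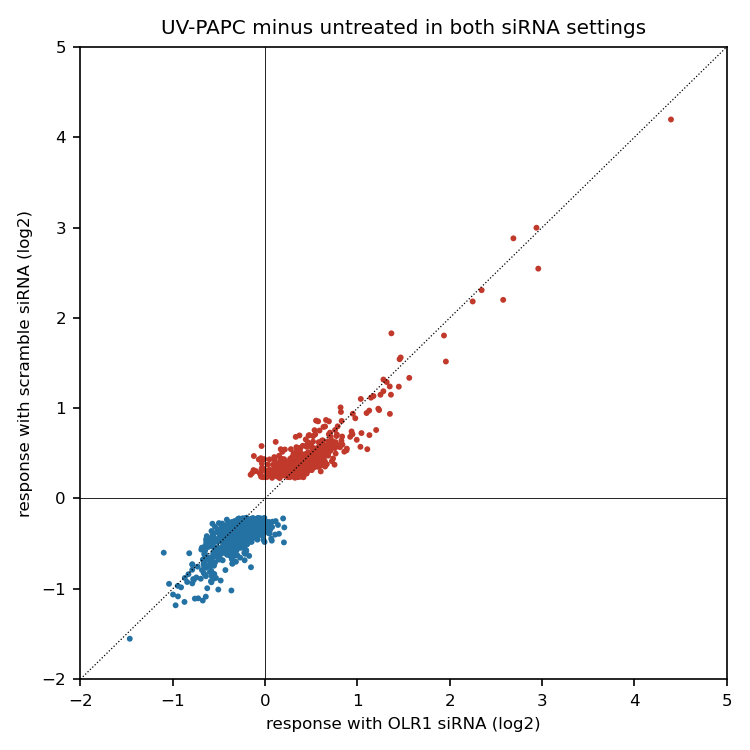
Each point is a gene past the threshold with scramble siRNA, with its UV-PAPC minus untreated log2 difference under OLR1 siRNA on the x axis and under scramble siRNA on the y axis. Red genes rose and blue genes fell with scramble siRNA, and the dotted line marks equal responses. HSPA6 lies at 4.40 and 4.20, and 0 genes were called in opposite directions.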

How the data were processed

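RNA of 12 samples of SZ95 sebocytes, 100 ng each, was measured on 12 Affymetrix HuGene 1.0 ST arrays. Per the submitters' processing notes, the deposited log2 signals are RMA values from Expression Console (version 1.3.1.187), with settings not stated. They entered the fit unchanged. The number of arrays limits the precision. RMA can compress large fold changes.

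The table held 33297 entries, of which the probe annotation, which may be old, gives 19460 a single gene symbol, 1754 more than 1 and 12083 no symbol. Of the first, 19429 matched the RefSeq table by Entrez number. The probe set with the highest mean stood for a gene (769 genes had more than 1), which left 18417 genes. The 4 group means were fitted to 12 arrays by limma (version 3.58.1, R 4.3.3; residual df 8, prior df 7.66; two-sided, Benjamini-Hochberg threshold 0.05) and the fit was tested on simulated data. The contrasts used were UV-PAPC minus untreated with each siRNA and the difference of both.

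The genes named were the 30 highest and 30 lowest log2 differences among genes past the threshold whose groups did not overlap (small RNA, uncharacterised, antisense and readthrough genes left out), OLR1, the 5 genes of lowest p in the difference, and members of gene lists. Antisense, host and small RNA genes outside this rule were named because they overlap a named gene or led the small RNA list, and were chosen after their values were seen. Members and lists were chosen with earlier results of these data known, and lists are described by counts and medians without a test. Promoters came from RefSeq (GRCh38.p14) for 14237 of the tested genes. All motif letters searched were written from general knowledge of the motifs and come from no deposited or reference file, and the heat shock and interferon motifs are given by name only. Plots used matplotlib 3.10.9 under Python 3.11.15. Alternatives were the prior, array weights, signal filter, probe set choice, array scaling, arrays in the fit, a replicate block and each array left out. Leaving out both arrays of narrowest spread was added after seeing the data.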

Additional observations from a re-analysis of the deposited data

Results flagged for a closer look

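Table entries outside the tested genes also passed the limma threshold when all entries were fitted together. Of 1754 entries with several gene symbols 75 passed (4.28%), 38 upward and 37 downward, with log2 differences of those called from -0.84 to 3.34. Of 12083 entries with no gene symbol 161 passed (1.33%), 94 upward and 67 downward, from -1.84 to 2.59. They are not named here because the annotation ties them to no single gene.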

How the results depend on the processing

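The total of 1347 genes past the threshold was 744 without both arrays of narrowest spread (334 rises and 410 falls) and 310 when a log2 difference of at least 0.5 was also required (135 rises and 175 falls). Array weights gave 806 rises and 1036 falls. Leaving out single arrays gave totals of 868 to 1126, rises of 346 to 470 and falls of 512 to 770. Over the other alternatives totals ran from 1166 with the 6 scramble arrays alone to 1695 with a trended and robust prior. Rises made up 36.5% of the calls, 47.4% without UV-PAPC replicate 3. The cause was not tested. The replicate numbers did not pair the samples (correlations of the deviations of same-numbered arrays of 0.105, -0.212 and -0.05), and the replicate block gave 1309 genes, 488 upward and 821 downward. Of 432 called genes that are named or listed, 274 to 428 kept the call under the settings that tested all of them, and 0 of them turned direction. The log2 fold change of OLR1, which is not past the threshold, ran from -0.083 without UV-PAPC replicate 1 to 0.354 without untreated replicate 1, with -0.064 without untreated replicate 3 and 0.109 with all arrays. The difference of responses between siRNAs had 0 genes past the limma threshold under each of the 15 alternatives run, with 758 to 1317 at an unadjusted p under 0.05. The only list with a median beyond 0.1 that changed sign was that of melanocyte markers, at -0.064 among genes above the median signal against 0.116. Signal over background is not given, which limits statements on dim genes.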

Other observations

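Families were also grouped by symbol alone. Of the ZNF genes 4.05% rose and 2.43% fell, and of the solute carriers 3.5% rose and 3.5% fell. Among all genes 2.67% rose and 4.64% fell, and 1.38% rose and 2.24% fell with each array left out. Of 494 ZNF genes 7 rose and 9 fell with each array left out, with ZNF761 (0.79) and ZNF473 (0.64) highest and ZNF750 (-0.86) and ZNF22 (-0.58) lowest. Of 343 solute carriers 6 rose and 3 fell in the same sense. Beside SLC7A11, the rises included the monocarboxylate carrier family member SLC16A14 (0.86), the inositol importer SLC5A3 (0.74) and the potassium-chloride cotransporter SLC12A7 (0.71), and the choline transporter-like SLC44A5 fell (-0.70).

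Actin and SRF target genes were slightly lower, with 21 of 26 values below 0 (median -0.114, and -0.071 with quantile normalization repeated). Their mean signal is high, and the brightest group of all genes had a median of -0.045. In the list 3 genes fell (11.5%), against 4.64% of all genes. Vinculin VCL (-0.35), the actin-bundling LIMA1 (-0.44) and calponin CNN2 (-0.33) fell with each array left out, and ACTRT3 was the 1 gene of the list that rose.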
